A study of Mus musculus with 9 samples.

Results

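Imprinted growth regulators were followed in *Six2-eGFP/cre*-expressing cells of the embryonic kidney, in which the mitochondrial complex III subunit QPC was present or inactivated. The set was chosen by gene name, with earlier results of these data known. It holds *Igf2*, *H19*, *Igf2r*, *Grb10*, *Mest*, *Plagl1*, *Dlk1*, *Meg3*, *Rian* and *Peg3*. All 10 were found among the 26858 genes of the count table, and all 10 were among the 14990 genes that passed the filter on low counts and were tested. Cells were obtained by fluorescence-activated cell sorting at embryonic day E18.5 from control and mutant mice, with 4 control and 5 mutant RNA-seq libraries. Mutants (Six2-Qpc−/−) carried a bacterial artificial chromosome transgene for Cre fused to eGFP under the *Six2* promoter together with floxed alleles of *Qpc* (*Uqcrq*), and controls (Six2-Qpc+/−) were heterozygous and also expressed eGFP/Cre. The control was therefore neither Cre-free nor wild type at *Qpc*. The *Six2* promoter is active in nephron progenitors of the cap mesenchyme, and cells that retain the fusion protein early in differentiation can be sorted with them. The paper names this limit for the controls, where it could not fully exclude differentiating cells with low eGFP. It also reports a smaller share of eGFP-positive cells in mutant than in control kidneys. Litter, sorting day and sex are not given in the labels.

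An imprinted gene is transcribed mainly from the chromosome inherited from 1 parent, and DNA methylation set in the germ line tells the parental copies apart. Imprinted genes lie in clusters that share control regions, and many act on fetal growth. The best known pair in the kidney is *Igf2*, which encodes insulin-like growth factor 2, and *H19*, a noncoding RNA expressed from the opposite parental copy. The libraries measured RNA summed over both parental copies, so allele-specific expression was not measured.

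The sequences shown first are those of small RNAs encoded within the members that differed between genotypes. RefSeq (GRCm38.p6) places 15 mature microRNAs within 5 of the 10 genes, on the same strand. *H19* is the host of miR-675 and *Igf2* of miR-483, and these hosts were the members lower in mutant cells. *Rian* is the host of miR-341 and miR-370, among others, and was higher. Capitals mark the seed, bases 2 to 8, and sequences run 5′ to 3′:
miR-675-5p: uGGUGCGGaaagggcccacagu
miR-675-3p: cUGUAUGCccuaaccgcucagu
miR-483-5p: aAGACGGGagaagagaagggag
miR-483-3p: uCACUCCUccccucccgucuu
miR-341-3p: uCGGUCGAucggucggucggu
miR-370-3p: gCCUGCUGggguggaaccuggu
The 15 microRNAs had 15 distinct seeds, so no family is shared between hosts. These poly(A)-selected libraries measured the host transcripts and not the mature microRNAs.

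The CpG content of the promoters differed widely among the members. Promoter windows were placed by start site and not by the control regions of the clusters, so their CpG counts are no measure of imprinting. RefSeq start sites of 9 members gave 16 windows, and *H19* had none. A RefSeq start can lie inside the gene as counted. The *Plagl1* window reaches past the counted start at chr10:13090691, and the *Igf2* window shown lies within the counted gene. Shown are the 250 bases before a RefSeq start for the 2 genes with the largest rise and for the most CpG-rich start of *Igf2*, with CpG dinucleotides in capitals:
*Plagl1*, chr10:13090582-13090831, plus strand: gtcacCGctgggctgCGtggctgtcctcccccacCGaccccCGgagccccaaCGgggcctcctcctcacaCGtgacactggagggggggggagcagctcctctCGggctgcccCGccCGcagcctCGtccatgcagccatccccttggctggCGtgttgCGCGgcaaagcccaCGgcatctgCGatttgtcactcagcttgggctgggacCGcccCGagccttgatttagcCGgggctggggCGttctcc
*Dlk1*, chr12:109452573-109452822, plus strand: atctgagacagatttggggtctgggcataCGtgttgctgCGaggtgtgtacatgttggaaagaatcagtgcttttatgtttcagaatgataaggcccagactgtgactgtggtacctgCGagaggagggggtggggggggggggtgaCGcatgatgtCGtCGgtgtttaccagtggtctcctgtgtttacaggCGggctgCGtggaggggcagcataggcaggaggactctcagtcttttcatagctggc
*Igf2*, chr7:142658805-142659054, minus strand: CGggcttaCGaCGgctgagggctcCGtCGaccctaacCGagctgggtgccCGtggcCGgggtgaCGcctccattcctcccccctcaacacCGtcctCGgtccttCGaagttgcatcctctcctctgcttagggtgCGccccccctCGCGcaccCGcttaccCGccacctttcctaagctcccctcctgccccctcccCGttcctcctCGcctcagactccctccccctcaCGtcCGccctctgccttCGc
The *Plagl1* window holds 19 CpG, a number reached by 19.7% of all 32851 RefSeq windows. The *Igf2* window holds 22, reached by 14.8% of windows, and the *Dlk1* window holds 8, reached by 43.0%. The *Rian* window holds 0, and the median of all windows is 6. The other *Igf2* windows hold 1, 10 and 6. The most CpG-rich window of the set was that of a *Grb10* start, with 40 CpG (reached by 1.31% of windows). It was followed by that of *Igf2r*, with 27 (reached by 8.56%). Neither *Grb10* nor *Igf2r* passed the test between genotypes. The letters GGGGCCCC, a palindrome related to those that the PLAGL1 protein is known to bind, occurred in 1 of the 16 member windows of 300 bases, that of *Peg3*, and in 1.08% of all windows on either strand. TGATGNAA, the core of the element bound by stress-induced ATF4 dimers, occurred in 0 of the 16 and in 3.97% of all. Methylation and factor binding were not measured in these cells.

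Library totals lay between 21040536 and 23986458 counts, and those of the controls lay within the range of the mutants. *Uqcrq* fell from 94.1 ± 13.3 normalized counts per 1000000 (CPM; SD, n = 4) to 21.3 ± 4.45 (SD, n = 5), with no overlap. Its log2 fold change was −2.14 (SE 0.16, edgeR adjusted p = 2.09e-05). None of the 10 tested progenitor markers passed the edgeR test (2 had an unadjusted p under 0.05), and *Six2* had 571 ± 53.4 CPM in control and 704 ± 102 in mutant cells. Of 9 tested stroma markers, 6 were higher in mutant cells, and the summed level of all 10 listed ones was 98.3 to 166 CPM in control and 228 to 754 in mutant libraries. *Tbx18* was at 0 in at least 1 library of each genotype. The summed level of 5 myeloid markers was 2.30 to 7.47 CPM against 5.58 to 65.1, and that of 6 endothelial markers was 2.57 to 5.10 against 3.902 to 7.20. Of 7 committed progenitor markers 3 were lower, with sums of 337 to 667 CPM against 252 to 361. Y-linked genes summed to 263 to 328 CPM in control replicates 72 and 73 and mutant replicate 79 and were near 0 in the other 6 libraries. In sorted pools, a change in the share of a cell type and a change of RNA per cell cannot be told apart.

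The comparison between genotypes addresses which growth regulators differ once complex III is disrupted in progenitors. Of the 10 genes, 3 were higher in mutant cells (*Plagl1*, *Dlk1* and *Rian*), 2 were lower (*Igf2* and *H19*), and 5 did not pass the test at an adjusted p of 0.05. Over all tested genes 14.8% were called, 7.82% as higher and 7.02% as lower. The members were chosen with earlier results of these data known, so their share called does not describe imprinted genes in general. The median log2 fold change of the 10 was 0.27, beside −0.0085 over all tested genes. In 1 gene every mutant library lay above every control library (*Plagl1*), and in 1 every mutant library lay below (*Igf2*). Across all tested genes 7.5% were separated upward and 7.73% downward. Of the 5 paternally expressed members 2 were higher and 1 was lower, and of the 5 maternally expressed members 1 was higher and 1 was lower. The 10 genes together took 0.425% ± 0.0163 of the counts in the 4 control libraries (SD) and 0.429% ± 0.0338 in the 5 mutant libraries (p = 0.841, exact permutation of the genotype labels, 2-sided, for which 126 splits set a lower limit of 0.00794).

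**Figure D1:**
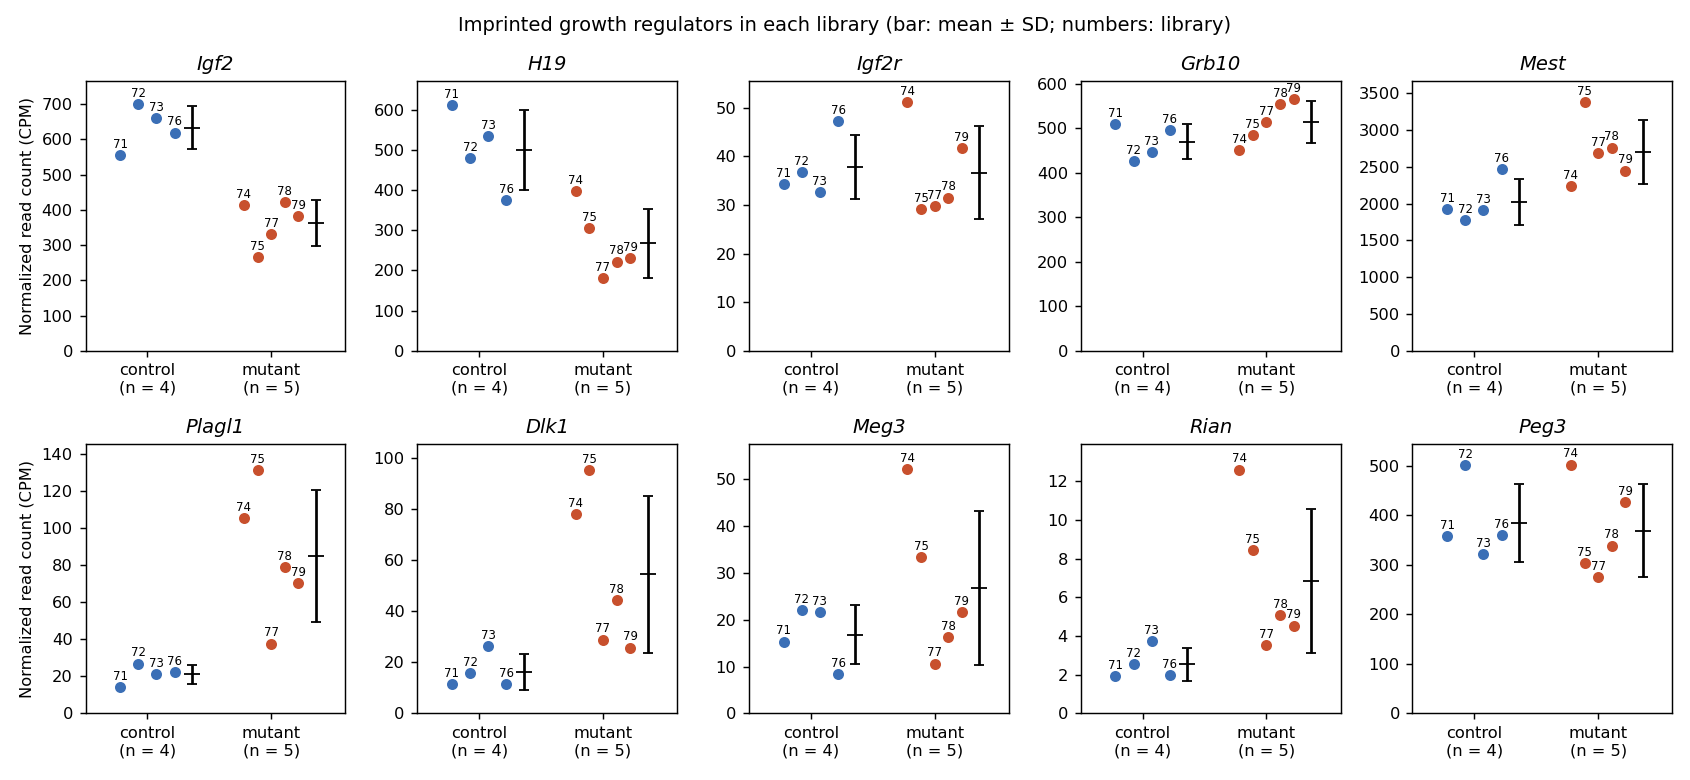
Normalized read count (CPM, linear axis from 0) of each imprinted growth regulator in the 4 control libraries (blue) and 5 mutant libraries (red), with the library number at each point and the mean ± SD beside each group. *Igf2* is below 423 in every mutant and above 554 in every control library, and *Plagl1* is above 37 in every mutant and below 27 in every control library.

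Per kilobase of gene length, the members spanned more than 3 orders of magnitude in control cells. *Mest* had the highest level, 792 ± 121 CPM per kb (SD, n = 4), which placed it 65th of all tested genes. It was followed by *H19* with 218 ± 43.6, *Igf2* with 134 ± 13.2, *Grb10* with 92.9 ± 7.73 and *Peg3* with 44.3 ± 9.11. No control library of one of these 5 overlapped with its neighbours in that order. *Igf2r* (4.25 ± 0.740), *Plagl1* (4.02 ± 0.983) and *Dlk1* (3.48 ± 1.496) had overlapping ranges and could not be ordered. *Meg3* (1.16 ± 0.438) and *Rian* (0.315 ± 0.105) were the lowest. In mutant cells (n = 5) the levels per kb of *H19* (117 ± 37.4) and *Igf2* (77.01 ± 13.8) overlapped with that of *Grb10* (102 ± 9.40), while *Plagl1* (16.1 ± 6.77) no longer overlapped with *Igf2r* (4.13 ± 1.08).

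*Igf2* encodes a growth factor that signals through the IGF1 and insulin receptors, is paternally expressed and lies at chr7:142650766-142666816 (mm10, minus strand). In control replicates 71, 72, 73 and 76 it had 555, 701, 661 and 619 CPM, and in mutant replicates 74, 75, 77, 78 and 79 it had 414, 266, 332, 423 and 383 CPM. The genotypes did not overlap, with mutant replicate 75 the lowest. The mean fell from 634 ± 62.4 to 364 ± 65.0 CPM, a log2 fold change of −0.80 (SE 0.14, adjusted p = 0.00387), or 1.74-fold lower. The call was kept in all 20 alternatives, with adjusted p between 1.44e-05 and 0.0177.

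*H19*, the maternally expressed noncoding RNA that starts 88.7 kb from *Igf2* (chr7:142575529-142578143, minus strand), was also lower. Control replicates 71, 72, 73 and 76 had 612, 479, 533 and 374 CPM, and mutant replicates 74, 75, 77, 78 and 79 had 397, 306, 181, 222 and 230 CPM. The genotypes overlapped through mutant replicate 74, which was above control replicate 76. The log2 fold change was −0.90 (SE 0.21, adjusted p = 0.0133), from 499 ± 99.6 to 267 ± 85.6 CPM. With 1 surrogate variable the call was lost (log2 fold change −0.77, adjusted p = 0.0523), and over all alternatives adjusted p ranged from 5.75e-04 to 0.0523.

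The ratio of *H19* to *Igf2* counts within a library is independent of library scaling. Its log2 value was −0.36 ± 0.38 in the 4 control libraries (SD) and −0.48 ± 0.52 in the 5 mutant libraries, a difference of −0.12 (exact permutation test, p = 0.698). The ratio ran from −0.93 to 0.20 among mutant libraries, with replicates 74 and 75 highest. Within genotypes the 2 genes did not track each other (Pearson r of the deviations from the genotype means −0.051, 9 libraries).

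*Igf2r* encodes the receptor that clears IGF2 by carrying it to lysosomes, is maternally expressed and lies at chr17:12682406-12769664. It had 32.6 to 47.3 CPM in control and 29.2 to 51.2 in mutant libraries, with a log2 fold change of −0.04 (SE 0.19, adjusted p = 0.904, 95% interval −0.44 to 0.36). Relative to *Igf2* it was higher in mutant cells, which mainly restates the fall of *Igf2* and is not separate evidence. The log2 ratio of *Igf2r* to *Igf2* was −4.01, −4.25, −4.34 and −3.71 in control replicates 71, 72, 73 and 76 and −3.02, −3.19, −3.48, −3.74 and −3.20 in mutant replicates 74, 75, 77, 78 and 79. Only mutant replicate 78 lay within the control range. The difference was 0.75 (exact permutation test, p = 0.0238, 0.0476 adjusted over 4 ratios). Without any 1 of control replicates 72 and 73 and mutant replicates 74, 75, 77 and 79 it stayed between 0.67 and 0.79 with an exact permutation p between 0.0536 and 0.0571.

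*Grb10* encodes an adaptor protein that dampens signalling of the insulin and IGF1 receptors. It had 427 to 510 CPM in control and 451 to 566 in mutant libraries (log2 fold change 0.13, SE 0.11, adjusted p = 0.460, 95% interval −0.11 to 0.37). Around these members, 8 genes of IGF signalling were tested and 1 was higher, or 12.5%, near the 14.8% of all tested genes. It was *Igf2bp3*, which encodes an RNA-binding protein of *Igf2* transcripts. *Igf2bp3* had 15.04 ± 5.72 CPM in control and 25.9 ± 5.17 in mutant cells (log2 fold change 0.78, SE 0.24, adjusted p = 0.0434). The libraries kept no strand, and *Igf2bp3* overlaps *Malsu1* on the opposite strand over 1529 bases, so their reads there cannot be told apart. The call was lost without control replicate 72 or 73 or mutant replicate 74, 75, 78 or 79, with adjusted p up to 0.135. The receptor genes *Igf1r* (log2 fold change −0.43, SE 0.27, adjusted p = 0.289) and *Insr* (0.17, SE 0.17, adjusted p = 0.531) did not pass the test.

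*Mest*, a paternally expressed member of the alpha/beta hydrolase family, was the most abundant of the 10. Control replicates 71, 72, 73 and 76 had 1929, 1776, 1915 and 2474 CPM, and mutant replicates 74, 75, 77, 78 and 79 had 2237, 3377, 2686, 2762 and 2450. All 5 mutant libraries were above the control mean, and 3 were above control replicate 76, the highest of the controls. The log2 fold change was 0.42 (SE 0.14, adjusted p = 0.0660), outside the threshold. It passed without control replicate 76 (0.54, adjusted p = 0.0341), without mutant replicate 74 (0.48, adjusted p = 0.0277), and in DESeq2, limma-voom and the fit with 1 surrogate variable, and over all alternatives adjusted p ranged from 0.00544 to 0.171. *Mest* shares 912 bases with *Copg2* on the opposite strand, whose level (70.6 ± 6.56 against 77.7 ± 18.6 CPM) was far below that of *Mest*.

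*Plagl1*, a paternally expressed zinc finger transcription factor that slows cell division and acts on other imprinted genes, showed the highest fold of the 10. It lies at chr10:13090691-13131694 (plus strand). Control replicates 71, 72, 73 and 76 had 14.3, 26.8, 21.4 and 22.2 CPM, and mutant replicates 74, 75, 77, 78 and 79 had 105, 131, 37.6, 78.8 and 70.1. No mutant library overlapped with a control library, and mutant replicates 75 and 74 were the highest. The log2 fold change was 2.0 (SE 0.31, adjusted p = 0.00203), or 4.00-fold higher. It was past the threshold in all 20 alternatives (adjusted p between 1.11e-10 and 0.0152) and was 1.56 (adjusted p = 0.00256) without mutant replicates 74 and 75 together.

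The *Dlk1* domain on chromosome 12 joins a paternally expressed protein gene to maternally expressed noncoding RNAs, which are read in the same direction over a long stretch. *Dlk1* encodes a transmembrane protein related to Notch ligands and is known from immature and mesenchymal cells (chr12:109452823-109463336, plus strand). Control replicates 71, 72, 73 and 76 had 11.6, 15.7, 26.2 and 11.4 CPM, and mutant replicates 74, 75, 77, 78 and 79 had 77.9, 95.2, 28.8, 44.4 and 25.7. All mutant libraries but replicate 79 were above every control, and replicate 79 was just under control replicate 73. The log2 fold change was 1.75 (SE 0.42, adjusted p = 0.0190). It did not pass without control replicate 71 (1.62, adjusted p = 0.0520) or 72 (1.73, adjusted p = 0.0798), and over all alternatives adjusted p ranged from 0.00424 to 0.0949. The call was also lost with no filter beyond 1 count, with 1 surrogate variable, without control replicate 76 and mutant replicate 75 together (1.32, adjusted p = 0.0523) and with a Y-linked covariate (1.78, adjusted p = 0.0684). Without mutant replicates 74 and 75 together the log2 fold change was 1.03 (adjusted p = 0.0291).

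*Rian* was the scarcest member. It starts 151 kb from *Dlk1* (chr12:109603940-109661716, plus strand) and is the host of small nucleolar RNAs and of miR-341 and miR-370, among others. It had 1.92, 2.53, 3.75 and 1.98 CPM in control replicates 71, 72, 73 and 76, from 45 to 89 reads per library. Mutant replicates 74, 75, 77, 78 and 79 had 12.6, 8.46, 3.52, 5.07 and 4.54 CPM, from 69 to 296 reads. Mutant replicate 74 was the highest and replicate 77 the only one within the control range. The log2 fold change was 1.43 (SE 0.38, adjusted p = 0.0254). Without control replicate 71, 72 or 76 or mutant replicate 75 it was between 1.31 and 1.42 and did not pass (adjusted p = 0.0773, 0.0616, 0.0509 and 0.0508), and without mutant replicates 74 and 75 together it was 0.78 (adjusted p = 0.113). It was 0.88 (adjusted p = 0.0542) in limma-voom, and over all alternatives adjusted p ranged from 0.00134 to 0.113.

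*Meg3*, a noncoding RNA between the other two (chr12:109541001-109571726), had 15.3, 22, 21.5 and 8.44 CPM in control replicates 71, 72, 73 and 76 and 52.1, 33.3, 10.6, 16.3 and 21.6 in mutant replicates 74, 75, 77, 78 and 79. Only mutant replicates 74 and 75 were above the controls. The log2 fold change was 0.67 (SE 0.42, adjusted p = 0.301, 95% interval −0.24 to 1.59), and without those 2 libraries it was −0.055. *Meg3* also shares 1228 bases with *Gm26906* on the opposite strand, and the libraries kept no strand, so reads there cannot be told apart. Ratios within a library compare the 3 transcripts of the domain without any scaling. The log2 ratio of *Rian* to *Meg3* was −2.68 ± 0.47 (SD) in the 4 control and −1.91 ± 0.27 in the 5 mutant libraries, a difference of 0.77 (exact permutation test, p = 0.0159, 0.0476 adjusted over 4 ratios). That of *Meg3* to *Dlk1* was 0.05 ± 0.47 in control and −1.05 ± 0.59 in mutant cells, a difference of −1.09 that did not pass after adjustment (exact permutation test, p = 0.0476, 0.0635 adjusted). Without control replicate 72 or mutant replicate 74, 75, 77 or 78 the *Rian* to *Meg3* difference was 0.63 to 0.81 with an exact permutation p between 0.0536 and 0.0571.

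**Figure D2:**
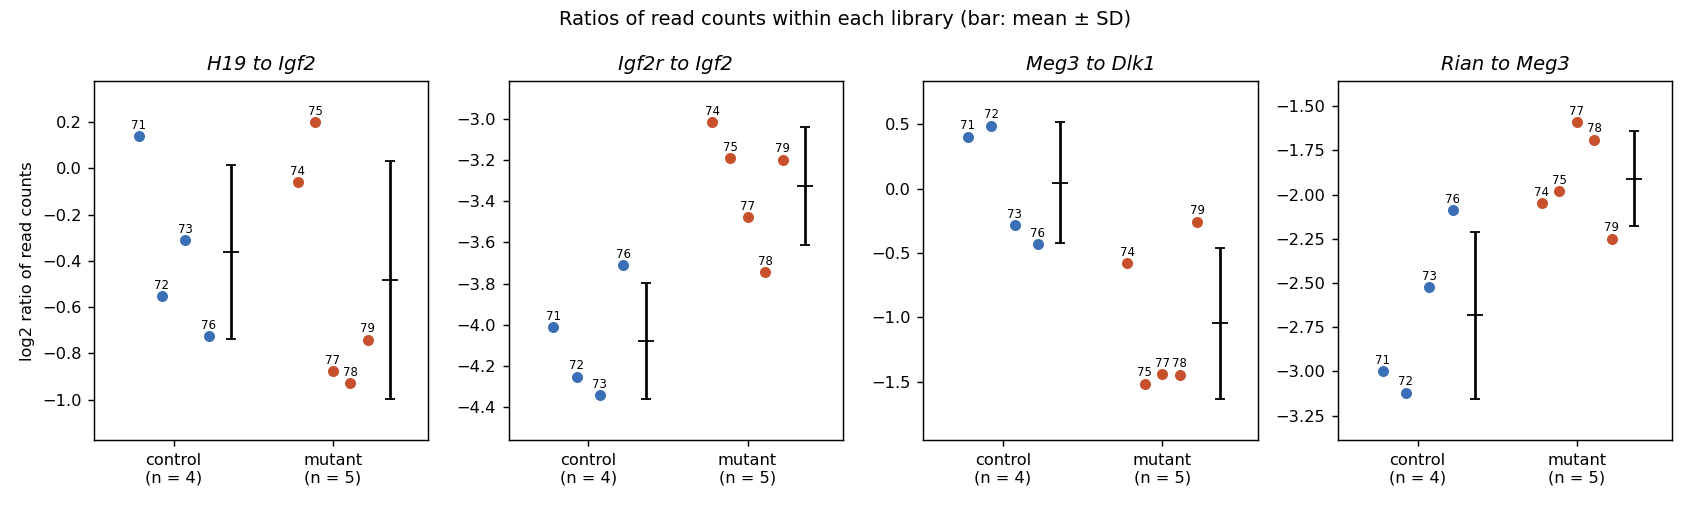
Log2 ratio of the read counts of 2 genes within each library (points, with the library number), for control (blue, n = 4) and mutant libraries (red, n = 5), with mean ± SD. The *Igf2r* to *Igf2* and *Rian* to *Meg3* ratios are higher in mutant libraries, by 0.75 and 0.77, and the *H19* to *Igf2* ratio overlaps throughout.

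Of the 9 tested stroma markers, 6 rose and 3 did not pass the test. The summed level of the list was 438 CPM in mutant replicate 74 and 754 in replicate 75, the libraries highest for *Plagl1*, *Dlk1*, *Meg3* and *Rian*. It was 228 to 324 in the other mutant libraries and 98.3 to 166 in controls. The controls did not follow this order. Control replicate 76 had the highest sum of the controls (166 CPM) and their lowest *Meg3* (8.44) and *Dlk1* (11.4). Control replicate 73 had the lowest sum (98.3 CPM) and the highest *Dlk1* (26.2) and *Rian* (3.75) of the controls. Mutant replicate 74 had more *Meg3* and *Rian* than mutant replicate 75. *Col3a1*, *Col1a1* and *Pdgfra* gave 180, 127 and 118 CPM of the sum in replicate 75. Not every marker followed the sum. *Foxd1* had 43.7 and 44.0 CPM in mutant replicates 74 and 75 and 41.7, 47.1 and 46.3 in replicates 77, 78 and 79. *Pdgfra* rose from 4.14 ± 2.24 to 52.4 ± 38.4 CPM (log2 fold change 3.66, SE 0.62, adjusted p = 0.00623), *Col1a1* from 20.1 ± 3.99 to 74.4 ± 36.2 (1.89, SE 0.32, adjusted p = 0.00334), and *Foxd1*, the transcription factor of cortical stroma progenitors, from 29.9 ± 4.41 to 44.6 ± 2.15 (0.58, SE 0.13, adjusted p = 0.0121; 0.0509 without control replicate 73). *Postn* (log2 fold change 2.19, adjusted p = 0.0624) and *Lum* (1.03, adjusted p = 0.273) did not pass, and *Pdgfrb* had 10.7 ± 3.77 CPM in control and 7.51 ± 3.29 in mutant cells (−0.51, adjusted p = 0.315). The part of stroma cells in the rise of the imprinted genes was not tested. Of the 7 committed progenitor markers 3 fell, *Wnt4* with a log2 fold change of −1.77 (SE 0.32, adjusted p = 0.00580), *Lhx1* with −2.36 (SE 0.32, adjusted p = 0.00102) and *Ccnd1* with −1.23 (SE 0.37, adjusted p = 0.0438). *Fgf8* (−1.11, adjusted p = 0.0540), *Jag1* (−0.69, adjusted p = 0.125) and *Lef1* (−0.62, adjusted p = 0.143) did not pass, and *Pax8* had 182 ± 33.7 CPM in control and 181 ± 48.6 in mutant cells. The *Ccnd1* call was lost without any 1 of 7 libraries, all but control replicate 76 and mutant replicate 74, with adjusted p up to 0.128. The part of committed cells in the lower *Igf2* and *H19* was likewise not tested.

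Among libraries of 1 genotype, the noncoding RNAs and *Dlk1* varied together. Over the deviations of 9 libraries from their genotype means, which share the library and its depth, Pearson r was 0.905 for *Rian* and *Dlk1*, 0.897 for *H19* and *Meg3*, 0.891 for *Meg3* and *Rian* and 0.754 for *Meg3* and *Dlk1*. Mutant replicate 74 was above its genotype mean by 1.17 (log2) for *Meg3*, 1.03 for *Rian*, 0.71 for *Dlk1* and 0.63 for *H19*, and mutant replicate 77 was below it for each of these. *Plagl1* varied with them too, with r = 0.75 to *Rian*, 0.74 to *Dlk1* and 0.695 to *Meg3*. *Grb10* ran the other way, with r = −0.767 to *Rian* and −0.735 to *Dlk1*, but its deviations reached at most 0.18 on the log2 scale. Genes outside the set reached as high. Among 9337 other genes the highest r was 0.99 with *Meg3*, 0.97 with *H19*, 0.96 with *Dlk1* and 0.96 with *Rian*. The highest of so many values over 9 libraries is large in any case. Whether the r between members stands out among all genes was not tested.

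**Figure D3:**
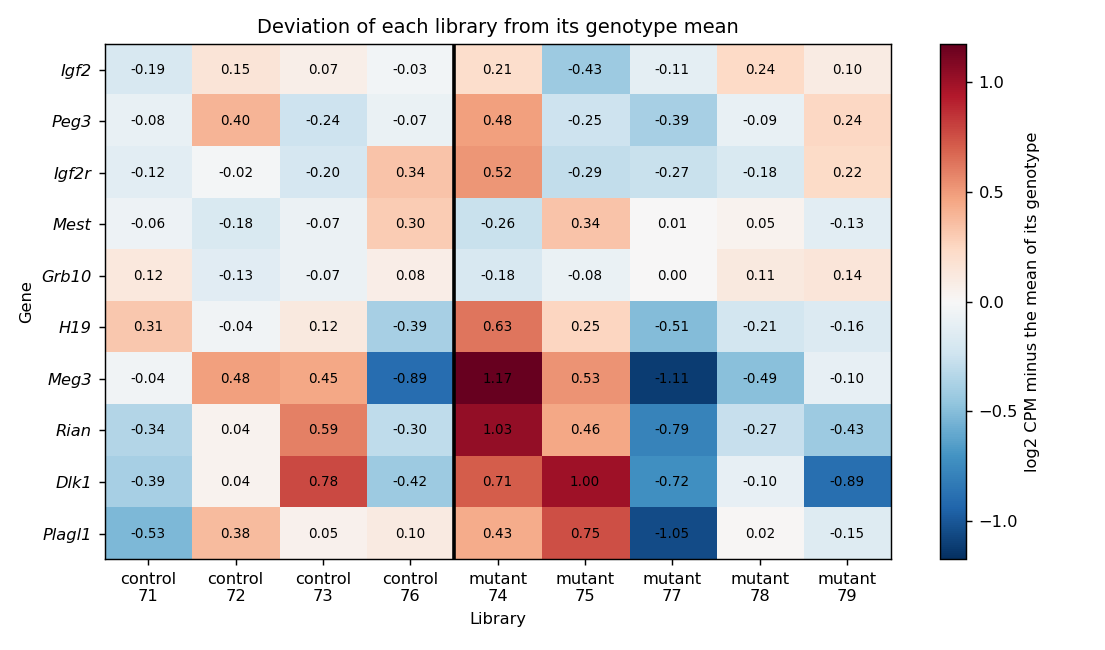
Deviation of log2 CPM from the mean of its genotype, for each member (rows) in each control and mutant library (columns, separated by the black line), with red above and blue below the mean. *Meg3*, *Rian*, *Dlk1* and *Plagl1* are above their mean in mutant replicates 74 and 75 and below it in replicate 77, from 1.17 to −1.11.

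*Peg3*, a paternally expressed zinc finger gene (chr7:6703892-6730421), had 321 to 501 CPM in control and 276 to 503 in mutant libraries, and the fitted log2 fold change was −0.06 (SE 0.18, adjusted p = 0.856, 95% interval −0.45 to 0.33). *Zim1*, its maternally expressed neighbour, passed the test with 7.43 ± 2.32 CPM in control and 12.98 ± 2.60 in mutant cells (log2 fold change 0.80, SE 0.24, adjusted p = 0.0382). It did not pass without control replicate 71, 73 or 76 or mutant replicate 75, 78 or 79, with adjusted p up to 0.122.

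The other genes of the same imprinted domains gave a mixed picture. Of 29 listed genes 23 were tested, 4 were higher and 2 lower, or 26.1% beside 14.8% of all tested genes, and their median log2 fold change was 0.16. This list was also chosen with earlier results of these data known. The highest fold was that of *Klf14*, a Krüppel-like transcription factor gene near *Mest*, which rose from 3.12 ± 0.574 to 12.95 ± 2.85 CPM (log2 fold change 2.05, SE 0.23, adjusted p = 3.64e-04) with no overlap between genotypes. *Phlda2*, a maternally expressed restrainer of placental growth on distal chromosome 7, was at 1.38 ± 0.253 CPM in control and 4.66 ± 2.24 in mutant cells (1.75, SE 0.42, adjusted p = 0.0163), but mutant replicate 79 (1.23 CPM) lay within the control range. *Mirg*, a noncoding RNA 277 kb from *Dlk1*, rose by a log2 fold change of 1.39 (SE 0.38, adjusted p = 0.0266), with 1.28, 1.44, 1.85 and 0.675 CPM in control and 5.33, 4.16, 1.99, 3.001 and 2.72 CPM in mutant libraries. *Cobl*, beside *Grb10*, fell by 1.14 on the log2 scale (adjusted p = 0.0287), and *Tssc4* fell by 0.42 (adjusted p = 0.0314). *Cdkn1c*, which encodes the cell cycle inhibitor p57, did not pass (255 ± 23.0 against 326 ± 108 CPM, adjusted p = 0.232). The antisense RNA *Airn*, which is transcribed across part of *Igf2r*, had 1 count in control replicate 76 and 278 to 524 counts in the other 8 libraries (log2 fold change 0.46, SE 0.82, adjusted p = 0.744). The libraries kept no strand, so reads from the stretch that both genes cover cannot be assigned by strand. *Igf2r* was highest in mutant replicate 74 (51.2 CPM), which had the most *Airn*, and next in control replicate 76 (47.3 CPM), which had the least, so the levels followed no single order. Without 1 library, adjusted p reached 0.0519 for *Phlda2* (control replicate 71), 0.0673 for *Mirg* (control replicates 71, 72 and 76 and mutant replicate 75 each ended the call), 0.0851 for *Cobl* (control replicates 71, 72 and 73 and mutant replicates 75, 77 and 78) and 0.1002 for *Tssc4* (the same 6 and mutant replicate 79). The count of 6 became 1 without control replicate 71, where 8.88% of all tested genes were called. It was 3 without control replicate 72 (8.36% of all), control replicate 73 (6.85%) or mutant replicate 78 (9.0%), and 2 without mutant replicate 75 (11.0%).

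**Figure D4:**
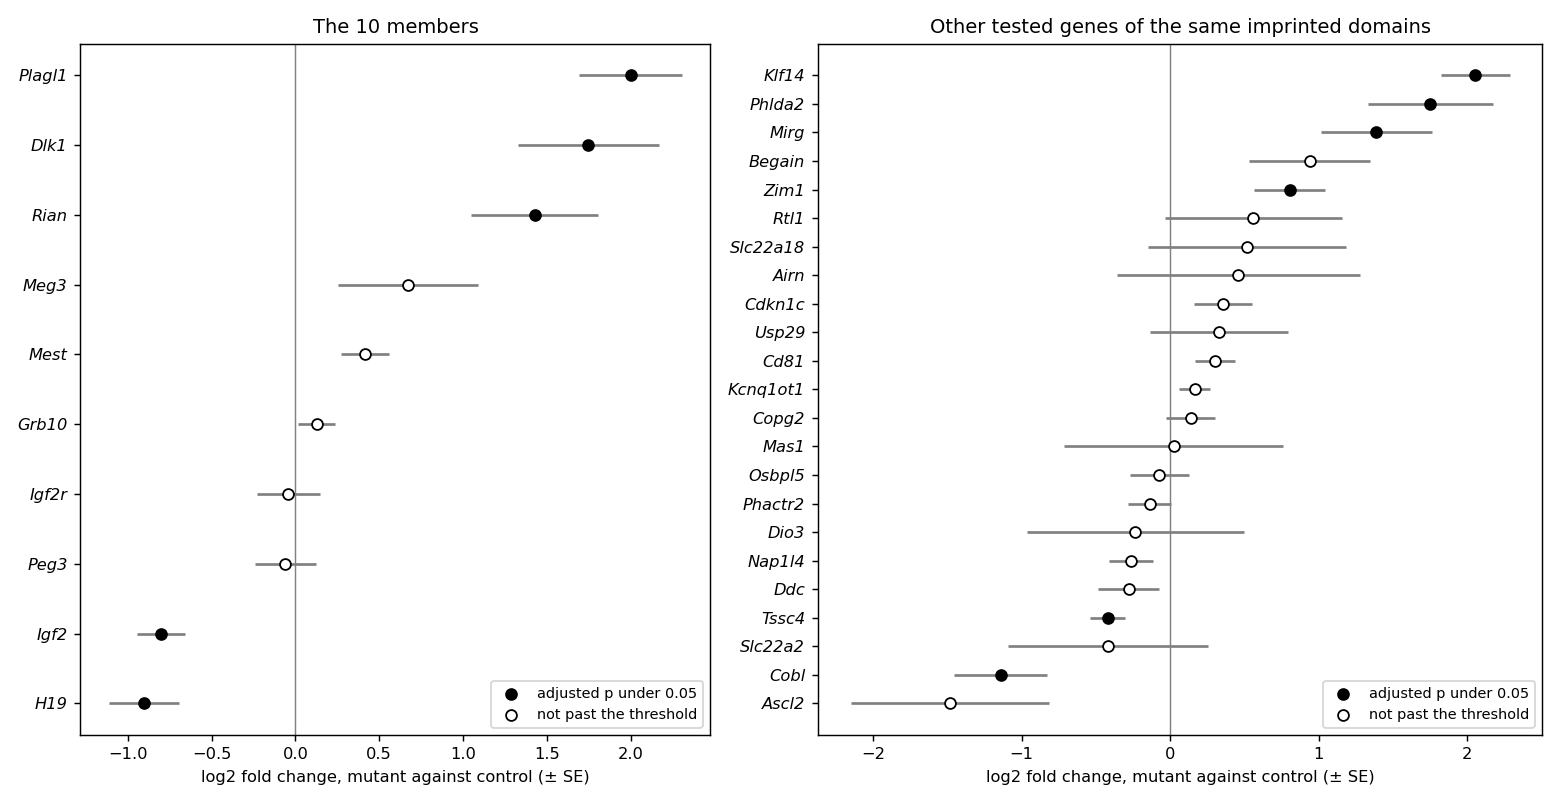
Log2 fold change, mutant against control, with SE bars from edgeR, for the 10 members (left) and 23 other tested genes of the same imprinted domains (right), with filled points where adjusted p was under 0.05. *Plagl1* (2.0) and *Klf14* (2.05) are highest and *H19* (−0.90) is the lowest of the members.

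Of 31 tested imprinted genes of other domains 4 were higher and 0 lower, or 12.9%, near the 14.8% of all tested genes, the median log2 fold change being 0.069, and 8 had an unadjusted p under 0.05. *Sfmbt2*, a polycomb group gene, rose from 12.3 ± 2.15 to 24.2 ± 3.46 CPM (log2 fold change 0.98, SE 0.17, adjusted p = 0.00416). *Sgce*, the gene of epsilon-sarcoglycan, rose from 1.72 ± 0.863 to 8.24 ± 6.76 CPM (2.26, SE 0.52, adjusted p = 0.0133), highest in mutant replicate 75. *Asb4* was between 0 and 0.717 CPM in control and between 1.17 and 6.33 CPM in mutant libraries (adjusted p = 0.00867). *Zdbf2* rose from 8.06 ± 0.548 to 13.03 ± 2.44 CPM (0.69, SE 0.18, adjusted p = 0.0251; up to 0.0670 without control replicate 72 or 73 or mutant replicate 78). All 4 were without overlap between genotypes. Without mutant replicate 74 the number called was 7, in a fit that called 21.2% of all tested genes.

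Some neighbours of *Igf2* and *H19* that are on no imprinted list were lower too. *Lsp1*, an actin-binding protein gene that starts 117 kb from *H19*, had 180, 252, 248 and 107 CPM in control replicates 71, 72, 73 and 76 and 68.1, 78.2, 74.01, 62.5 and 62.6 CPM in mutant replicates 74, 75, 77, 78 and 79, with no overlap (log2 fold change −1.51, SE 0.20, adjusted p = 8.91e-04). *Tnnt3*, the fast skeletal troponin T gene 79.3 kb from *H19*, went from 7.59 ± 1.72 to 2.50 ± 0.574 CPM, also with no overlap (−1.60, SE 0.25, adjusted p = 0.00225). *Mrpl23*, which starts only 45.3 kb from *H19*, did not pass (0.12, SE 0.14, adjusted p = 0.592). In the *Dlk1* domain, *B830012L14Rik*, between *Rian* and *Mirg*, was higher (1.57, SE 0.39, adjusted p = 0.0183; up to 0.0623 without control replicate 72 or 73). These 4 genes were picked after their values were seen. Within 500 kb of any member, 68 other genes were tested, 8 were higher and 5 lower, or 19.1% called. Of these, 16 were on the imprinted lists and 5 of them were called, and among the 52 on no imprinted list 15.4% were called, near the 14.8% of all tested genes.

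**Figure D5:**
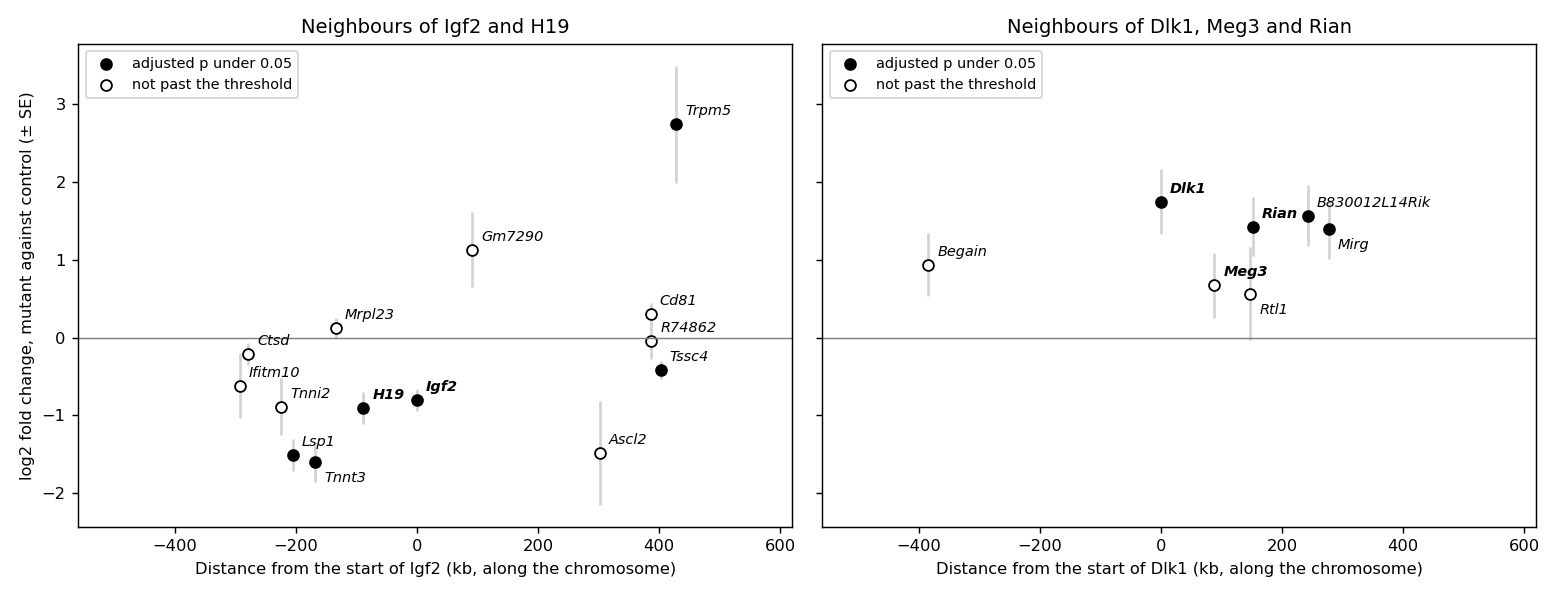
Log2 fold change (± SE), mutant against control, of tested genes that start within 500 kb of *Igf2* (left) or *Dlk1* (right), against the distance between start sites in kb, with filled points where adjusted p was under 0.05. *Lsp1* and *Tnnt3* lie below *H19* and *Igf2*, and *Rian*, *B830012L14Rik* and *Mirg* lie close to *Dlk1* in fold change.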

How the data were processed

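RNA-seq was performed on sorted cells of control and mutant mice, with 4 control and 5 mutant libraries. According to the labels, cDNA was amplified from low-input RNA, selected for poly(A) and sequenced without strand information, and the submitters' processing notes name STAR, DESeq2 and the build mm10. The counting tool and gene annotation are not given in the sources used here. The authors deposited raw read counts per gene and library, which were used here without their normalization. Their 9 FPKM columns, and the columns with their own comparison (mean signal, log2 fold change and p-values), were not used.

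Genes were taken by symbol. The identifier of *Rian* in the table does not pair with its symbol in GENCODE M21, unlike those of the other 9 members. Counts were filtered by filterByExpr, normalized by TMM and compared by the quasi-likelihood test of edgeR 4.0.16 (R 4.3.3) over all 14990 tested genes, with Benjamini-Hochberg adjustment. CPM are counts per 1000000 of the normalized library, and CPM per kb use the length of the deposited table. The replicates are separate mice only as far as the sample names tell. The p-values set the difference between genotypes against the spread between these libraries. Depth of 21040536 to 23986458 counts leaves counting error small for all members but *Rian*. For ratios the genotype labels were permuted exactly (126 splits, 2-sided). Intervals are unadjusted 95% limits. Scripts were tested on simulated data.

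As alternatives, upper-quartile or RLE factors, other count filters, DESeq2 1.42.0, a surrogate variable from sva 3.50.0, limma-voom (limma 3.58.1) with quality weights, a threshold of 0.01, and the omission of 1 library or of 2 together were tried. Leaving out mutant replicates 74 and 75 together and a Y-linked covariate were chosen after seeing the data. The members, lists and tests were chosen with earlier results of these data known. The text names all 10 members, up to 6 genes past the threshold of each list, and by likeness 3 genes each for the 4 members with the highest level per kb. *Igf1r*, *Insr*, *Cdkn1c*, *Airn*, *Copg2*, *Six2* and the neighbours outside the imprinted lists were named after their values were seen. Likeness was Pearson r of the deviations from genotype means over 9 libraries, where the mean over libraries was 10 CPM or more. Figures were drawn with matplotlib 3.10.9.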

Additional observations from a re-analysis of the deposited data

Results flagged for a closer look

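For a single library set apart from the rest of its genotype, 28 groups of libraries were examined (each member and ratio in each genotype) and 0 were found, where chance gives about 1 in 20, or 1.4.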

How the results depend on the processing

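Over 20 alternatives *Igf2* stayed lower and *Plagl1* higher past the threshold, the median of the members kept its sign (0.08 to 0.31), and *Grb10*, *Igf2r*, *Peg3* and *Meg3* did not pass. *H19*, *Rian* and *Dlk1* lost their call in at least 2 alternatives each, and *Mest* gained one in 5. Leaving out 1 library gave 1 to 4 members called higher, 1 to 7 genes of the same domains and 3 to 7 imprinted genes elsewhere. It put *Igf2r* between −0.19 and 0.10, *Peg3* between −0.20 and 0.091, *Meg3* between 0.28 and 0.87, and the log2 ratios between −0.29 and 0.048 (*H19* to *Igf2*), −1.29 and −0.94 (*Meg3* to *Dlk1*), 0.63 and 0.97 (*Rian* to *Meg3*) and 0.67 and 0.88 (*Igf2r* to *Igf2*). With 1 surrogate variable, 1 member was lower, beside 8.44% of all tested genes, and *Igf2r* (0.042) and *Peg3* (0.13) turned positive. Limma-voom called 8 imprinted genes elsewhere and 4858 genes in all, against 2225. Without control replicate 76 and mutant replicate 75 together, 1 member was higher and 1 gene of the same domains was called. That fit called 11.3% of all tested genes in either direction. With the same omission *Igf2r* was 0.16, and the ratios of *Meg3* to *Dlk1* (−1.13) and *Igf2r* to *Igf2* (0.84) no longer passed 0.05. The ratio of *Rian* to *Meg3* was 0.99. Without mutant replicates 74 and 75, 2 genes of the same domains were called, in a fit that called 15.7% of all tested genes. *Meg3* was then −0.055. The ratios were −0.49 (*H19* to *Igf2*), −1.09 (*Meg3* to *Dlk1*), 0.84 (*Rian* to *Meg3*) and 0.61 (*Igf2r* to *Igf2*), none past 0.05. With fewer libraries the smallest exact p is larger. With the Y-linked covariate 3 genes of the same domains were called, in a fit that called 12.1% of all tested genes. In that fit *Peg3* was 0.0017 and *Dlk1* did not pass (adjusted p = 0.0684). At an adjusted p of 0.01, 1 member was higher, 1 lower, 1 gene of the same domains and 2 imprinted genes elsewhere were called, among 357 higher and 293 lower of all genes. Leaving out 1 library moved the count over all genes to between 1046 and 3136. The cause of these changes was not tested. No paired analysis was possible because control and mutant libraries share no replicate number.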

Other observations

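Other neighbours of the members, none of them on the imprinted lists and all picked after their values were seen, differed in both directions. *Klhdc10*, a substrate receptor gene of a ubiquitin ligase that starts 322 kb from *Mest*, rose from 94.7 ± 12.6 to 180 ± 23.8 CPM without overlap (log2 fold change 0.93, SE 0.13, adjusted p = 0.00121). *Ltv1*, a gene of ribosome assembly 102 kb from *Plagl1*, rose from 62.6 ± 4.50 to 99.2 ± 13.7 CPM (0.66, SE 0.12, adjusted p = 0.00486). *Acat2*, which encodes an acetyl-CoA acetyltransferase and starts 191 kb from *Igf2r*, fell from 125.5 ± 14.96 to 85.0 ± 4.49 CPM (−0.56, SE 0.11, adjusted p = 0.00587). *Trpm5* was at 0.404 ± 0.440 CPM in control and 2.75 ± 1.496 in mutant cells (adjusted p = 0.0281; up to 0.0706 without control replicate 71 or 73 or mutant replicate 75), and it shares 220 bases with *Tssc4* on the opposite strand.

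Among 9337 genes with enough reads, those whose deviations from the genotype means over 9 libraries were most like those of *Mest* were *Ddx5* (r = 0.982), *Fbxo25* (0.976) and *Rnf141* (0.974). For *H19* they were *Eno2* (0.971), *Manbal* (0.966) and *Stx5a* (0.960), for *Igf2* *Arhgap39* (0.977), *Zfp668* (0.957) and *Brpf1* (0.946), and for *Grb10* *Cwf19l2* (0.954), *5330426P16Rik* (0.938) and *Hmcn1* (0.937).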
